A study of Mus musculus with 2 samples.

Results

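Genes that encode regulators of alternative splicing in muscle were examined in mouse gastrocnemius, the large calf muscle. They are the muscleblind-like genes Mbnl1, Mbnl2 and Mbnl3, the CELF genes Celf1 and Celf2, the RBFOX genes Rbfox1 and Rbfox2, the RNA-binding-motif genes Rbm20 and Rbm24, and the polypyrimidine-tract-binding gene Ptbp1. They were chosen by name for their known role, not by their values, and all 10 matched an entry among the 55536 annotated genes.

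The series holds total RNA-seq of 1 group of 2 male B6Cast F1 mice (strain label B6CASTF1/J) aged 25 days, with no treatment named in the labels and with 1 library per animal from 300 ng of RNA. These mice are first-generation hybrids, and the reads were assigned to the mm10 annotation, which represents the B6 parent. Both samples carry the same donor entry, while their descriptions number them as different males. They were taken as separate animals on that ground, so the spread between them may be partly technical. No condition was compared, and each comparison below sets the library of animal 2 against that of animal 1.

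A pre-mRNA can be spliced in several ways, and RNA-binding proteins that sit beside an exon decide whether it is kept or skipped. MBNL, RBFOX and RBM24 proteins are known for promoting the exon choices of mature muscle, CELF and PTBP1 proteins for those of embryonic or undifferentiated cells, and RBM20 for repressing exons of titin and other large muscle proteins. MBNL and CELF proteins act in opposite directions on many of the same exons, and loss of free MBNL protein is the known basis of mis-splicing in myotonic dystrophy. Several of these genes also regulate exons of their own transcripts or of their paralogs.

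Expected counts (read counts shared out among the transcripts a read fits, so not always whole) summed to 37428588 in animal 2 and 35098487 in animal 1. Levels are the authors' TPM, the share of each gene's transcripts among all transcripts after correction for length, given per animal and as mean ± SD over the 2 animals. A second deposited quantification of the same libraries gives another set of TPM. A gene was called detected at 1 TPM or more in both libraries, which 10792 genes reached. Of the 6 markers of skeletal muscle fibres, all were detected, and their summed level was 90831 TPM in animal 2 and 90774 TPM in animal 1. By the scaled counts tested below, 5 of them were lower and 1 was higher in animal 2 past counting error. Of the 5 neuronal markers none was detected, with summed levels of 0.13 TPM in animal 2 and 0.26 TPM in animal 1. All 7 slow-fibre markers were higher in animal 2 past counting error, with a sum of 2143 TPM in animal 2 and 1150 TPM in animal 1. Schwann-cell markers were higher in 4 of 5, with 80.1 TPM in animal 2 and 37.7 TPM in animal 1, and fibroblast markers were lower in 4 of 5, with 844 TPM in animal 2 and 1250 TPM in animal 1. Of all genes tested, 7.96% were higher and 6.87% lower in animal 2 past counting error. Of the nuclear protein-coding genes with a summed count of at least 850, 26.8% passed in either direction. Most of the gap in the fibroblast sum was Col1a1, at 469 TPM in animal 2 and 864 TPM in animal 1. Col3a1, lower in animal 2 by the scaled counts tested below, had 229 TPM in each animal. In whole muscle, fewer cells of a type and less RNA per cell cannot be told apart.

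Of the 10 regulators, 9 were detected, and the MBNL genes stood at the top. Mbnl1 (chr3:60472830-60629750, plus strand, mm10) encodes a zinc-finger protein that promotes adult exon choices. It had 156.77 TPM in animal 2 and 134.82 TPM in animal 1 (146 ± 15.5, SD, n = 2). Mbnl2 (chr14:120275669-120431697, plus strand), its close paralog, had 123.69 TPM in animal 2 and 116.66 TPM in animal 1 (120 ± 4.97). The levels of the 2 genes did not overlap between animals, and they ranked 299 and 373 among 22015 nuclear protein-coding genes by mean TPM. Mbnl3 (chrX:51117269-51206532, minus strand), which is known mainly from embryonic and regenerating tissue, had 0.08 TPM in animal 2 and 0.22 TPM in animal 1. Those values rest on 11 counts in animal 2 and 12 in animal 1, above the limit of 3 counts that a count of 0 allows, and the gene was not detected at 1 TPM.

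Within the MBNL family Mbnl1 supplied 54.7 ± 1.64% of the TPM, Mbnl2 45.2 ± 1.60% and Mbnl3 0.058 ± 0.042% (SD, n = 2). The second quantification put the share of Mbnl1 higher, at 65.6% in animal 2 and 63.3% in animal 1. Mbnl1 had 269 TPM in animal 2 and 225 TPM in animal 1 there, and Mbnl2 had 141 TPM in animal 2 and 130 TPM in animal 1. Mbnl1 led the family in both animals under both quantifications. The longest annotated coding sequences of Mbnl1 and Mbnl2 are identical at 72.8% of 1104 aligned bases, and the longest stretch that their transcripts share exactly is 26 bases.

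Rbfox1 (chr16:5885355-7411526, plus strand) encodes a protein that binds a short RNA motif beside exons and is known for splicing in muscle, heart and brain. It had 67.93 TPM in animal 2 and 62.3 TPM in animal 1 (65.1 ± 3.98). Rbfox2 (chr15:77078990-77307004, minus strand), the broadly expressed paralog that binds the same motif, had 24.96 TPM in animal 2 and 21.61 TPM in animal 1 (23.3 ± 2.37). Rbfox1 stood 2.72 times above Rbfox2 in animal 2 and 2.88 times above it in animal 1, and it supplied 73.6 ± 0.751% of the family's TPM. Rbfox3, the neuronal member, was near the floor, with 6 counts in animal 2 and 11 in animal 1.

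Rbm24 (chr13:46418434-46431095, plus strand), a splicing activator of heart and skeletal muscle, had 59.03 TPM in animal 2 and 61.03 TPM in animal 1 (60.0 ± 1.41). Its paralog Rbm38, known for its part in muscle differentiation and the cell cycle, stood above it at 80.0 TPM in animal 2 and 64.4 TPM in animal 1. Rbm24 therefore made up 45.6 ± 4.39% of the pair's TPM. Rbm20 (chr19:53677306-53867080, plus strand), known for titin splicing and for inherited dilated cardiomyopathy, had 31.22 TPM in animal 2 and 23.91 TPM in animal 1 (27.6 ± 5.17). Rbm24 exceeded Rbm20 by 1.89 times in animal 2 and 2.55 times in animal 1. Of the 5 cardiac markers 1 was detected and both Nppa and Myl7 were listed at 0 in both animals.

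Over all annotated transcripts, the CELF genes and Ptbp1 were the lowest of the detected regulators by the first quantification. By the second this did not hold for Celf2, as given below, nor for Celf1 in animal 2. In that quantification Celf1 had 39.0 TPM in animal 2, where Rbm20 had 35.3 TPM and Rbfox2 had 32.1 TPM. In animal 1 Celf1 had 19.97 TPM there. Celf2 (chr2:6539694-7509563, minus strand) had 20.9 TPM in animal 2 and 20.19 TPM in animal 1 (20.5 ± 0.502). Celf1 (chr2:90940382-91019497, plus strand), which is known to accumulate as protein in myotonic dystrophy, had 21.29 TPM in animal 2 and 15.94 TPM in animal 1 (18.6 ± 3.78). The order of the 2 genes turned between the animals, with Celf1 slightly higher in animal 2 and Celf2 higher in animal 1. Of the other 4 CELF genes, Celf3 and Celf6 were listed at 0 in both animals, Celf4 had 2 counts in animal 2 and 0 in animal 1, and Celf5 had 2 counts in each. Ptbp1 (chr10:79854427-79864771, plus strand), a repressor of neuronal and muscle exons in undifferentiated cells, had 10.47 TPM in animal 2 and 7.44 TPM in animal 1 (8.96 ± 2.14). Its paralogs were also detected, Ptbp2 at 5.45 TPM in animal 2 and 5.79 TPM in animal 1, and Ptbp3 at 3.03 TPM in animal 2 and 3.57 TPM in animal 1.

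The level of Mbnl1 was 7.36 times that of Celf1 in animal 2 and 8.46 times in animal 1. Relative to Ptbp1 it was 14.97 times as high in animal 2 and 18.1 times in animal 1. By the second quantification the ratio of Mbnl1 to Celf1 was 6.91 in animal 2 and 11.3 in animal 1, so its size differed more between the animals there. The Celf1 level behind it was 39.0 TPM in animal 2 and 19.97 TPM in animal 1 in that quantification.

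**Figure D1:**
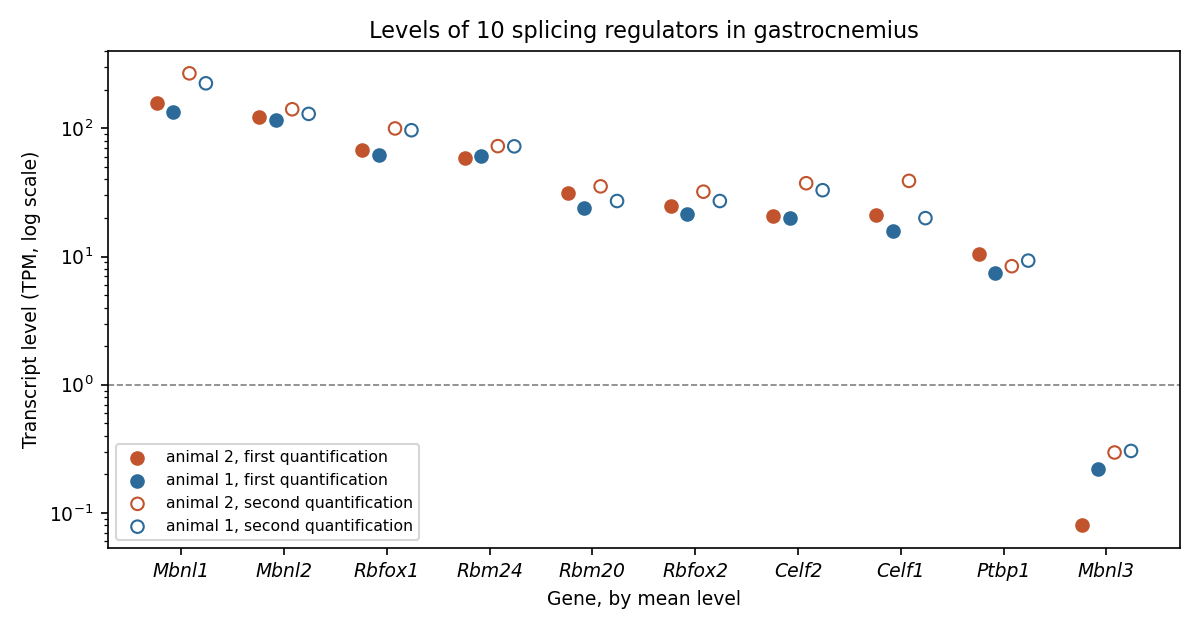
Levels of the 10 splicing regulators in TPM on a log axis, ordered by mean level, with animal 2 in orange and animal 1 in blue. Filled points are the first quantification, open points the second, and the dashed line is the detection threshold of 1 TPM. Mbnl1 and Mbnl2 lie above 100 TPM in all 4 estimates, and Mbnl3 lies below the threshold in all 4.

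In the order by mean level, Mbnl1, Mbnl2, Rbfox1, Rbm24, Rbm20, Rbfox2, Celf2, Celf1 and Ptbp1, neighbours did not overlap between animals except Rbm20 with Rbfox2 and Celf2 with Celf1. In the second quantification Celf2 stood above Rbfox2 without overlap, at 37.4 TPM in animal 2 and 33.0 TPM in animal 1 for Celf2, against 32.1 TPM in animal 2 and 27.2 TPM in animal 1 for Rbfox2. Its mean there was also above that of Rbm20, which had 35.3 TPM in animal 2 and 27.2 TPM in animal 1. For comparison, the median level of the 9937 detected nuclear protein-coding genes was 6.815 TPM, and every detected regulator had a mean above it. Summed over the 10 genes the level was 516 TPM in animal 2 and 464 TPM in animal 1.

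Short annotated transcripts carried part of several of these levels. Counting only transcripts of 1000 bases or more, Ptbp1 had 4.89 TPM in animal 2 and 5.15 TPM in animal 1, so the animals changed places. Ptbp1-209, a 375-base fragment annotated as coding, took 29.72% of the gene's level in animal 2 and 0% in animal 1. Rbm20 had 19.89 TPM in animal 2 and 17.81 TPM in animal 1 on this count, which leaves out the 465-base Rbm20-202. Celf2 then stood above Rbm20 in both animals, at 20.46 TPM in animal 2 and 18.13 TPM in animal 1. Mbnl1 then stood below Mbnl2, at 119.86 TPM in animal 2 and 103.94 TPM in animal 1 for Mbnl1, against 123.25 TPM in animal 2 and 115.62 TPM in animal 1 for Mbnl2. In the second quantification the same count left Mbnl1 above Mbnl2, at 179 TPM in animal 2 and 159 TPM in animal 1, against 131 TPM in animal 2 and 120 TPM in animal 1 for Mbnl2.

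The difference between the animals was tested on counts scaled by TMM, a normalisation that assumes most genes do not differ, with an exact conditional binomial test per gene and Benjamini-Hochberg adjustment over all 14754 genes tested. The error is counting error alone, so a result compares these libraries and not animals in general. Of the 10 regulators, 2 differed past counting error at an adjusted p under 0.05, against 14.8% of all genes tested, and 0 differed by over 2-fold as well, against 1.75% of all genes. The 2 were split evenly, with 1 higher in animal 2 (background 7.96%) and 1 lower in animal 2 (background 6.87%). Of all genes that passed, 53.7% were higher in animal 2, against 82.8% when libraries were scaled by their totals. Most members are well covered, and of the 5295 nuclear protein-coding genes whose counts in both libraries sum to at least 850, the sum for Ptbp1, 26.8% passed.

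Celf1 was higher in animal 2, with 2671 counts in animal 2 and 2038 in animal 1, a log2 ratio of 0.20 (95% interval 0.12 to 0.29, adjusted p = 2.63e-05, exact binomial test). Rbm24 was lower in animal 2, with 4774 counts in animal 2 and 4641 in animal 1, a log2 ratio of -0.14 (95% interval -0.20 to -0.09, adjusted p = 2.43e-05, exact binomial test). Scaled by library totals instead, Rbm24 no longer passed, at -0.05. The slow-fibre and Schwann-cell markers that were higher in animal 2 have the values given above, and their part in either difference was not tested. Rbm38, the paralog of Rbm24, went the other way, with 4027 counts in animal 2 and 3059 in animal 1 and a log2 ratio of 0.21 (adjusted p = 2.80e-08, exact binomial test).

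The other 8 regulators did not pass. Rbfox2 at 0.09 (interval 0.01 to 0.17) and Rbm20 at 0.08 (interval 0.00 to 0.16) had intervals just above 0 before adjustment, and adjusted p-values of 0.156 and 0.166 in the exact binomial test. Mbnl1, Mbnl2, Celf2, Rbfox1 and Ptbp1 lay between -0.03 and -0.00 on the log2 scale, and all 5 turned positive when scaled by library totals. Mbnl3 had a log2 ratio of -0.31 with an interval of -1.63 to 1.00, so a difference of up to about that size was not detectable at this depth. Over the 10 the median absolute log2 ratio was 0.06, beside 0.11 over detected nuclear protein-coding genes. That background was not matched for depth and includes genes with fewer counts and so more counting error. The medians therefore do not show that the regulators differed less than other genes. Most members had a larger ratio by TPM than by scaled counts: for Mbnl1 the log2 ratio was 0.22 by TPM and -0.02 by counts, for Rbm20 0.38 and 0.08, and for Ptbp1 0.49 and -0.02. The median log2 ratio by TPM over detected nuclear protein-coding genes was itself 0.12.

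**Figure D2:**
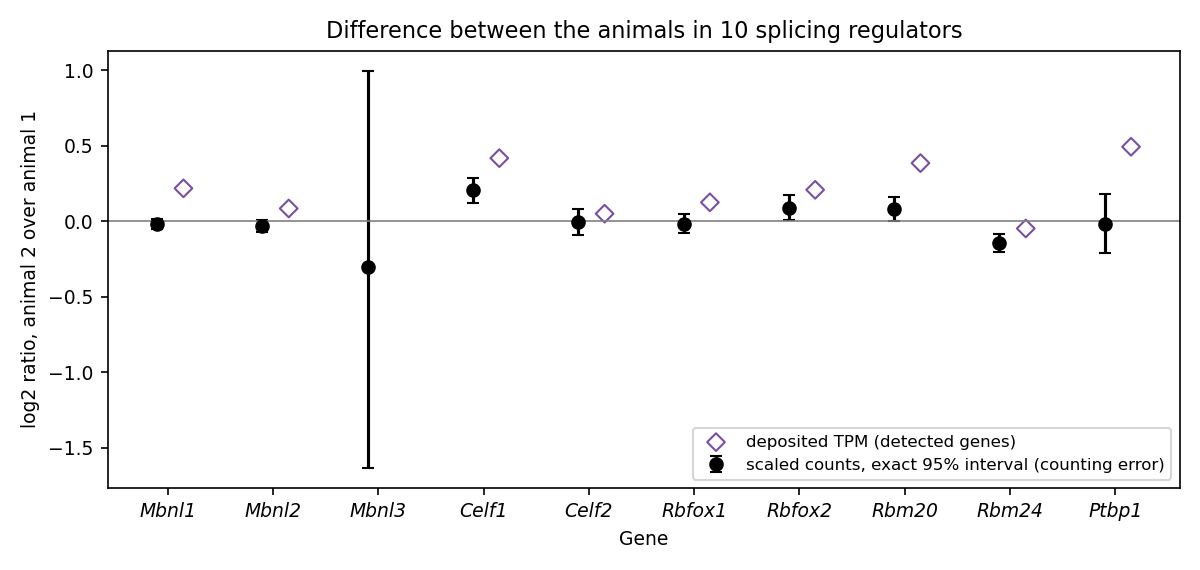
Log2 ratio of animal 2 over animal 1 for the 10 splicing regulators. Black points with bars are scaled counts with exact 95% intervals that cover counting error only, and open diamonds are ratios of deposited TPM for the 9 detected genes; Celf1 and Rbm24 are the genes whose scaled counts passed the test, at 0.20 and -0.14.

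The genes express many annotated transcripts, and the leading one was not always settled. The same transcript led in both animals and both quantifications for 4 of the 10 genes, Mbnl1, Mbnl2, Celf2 and Rbm24. Rbm24-201, of 3086 bases, took 87.26% of its gene's level in animal 2 and 86.86% in animal 1, and it was the only Rbm24 transcript above 0% in the second quantification. Mbnl2-204 took 59.02% in animal 2 and 58.02% in animal 1. Celf2-206 took 37.26% in animal 2 and 37.42% in animal 1, and Mbnl1-201 took 20.73% in animal 2 and 26.85% in animal 1. Mbnl1 was the most divided of these, with Mbnl1-214 next at 14.21% in animal 2 and 14.17% in animal 1.

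For Celf1 the first quantification put Celf1-201 first in both animals, at 26.03% in animal 2 and 27.19% in animal 1. The second quantification put the 489-base noncoding Celf1-209 first in animal 2, at 24.05%, and Celf1-201 first in animal 1, at 35.7%. For Ptbp1 the full-length coding transcript Ptbp1-216 took 20.03% in animal 2 and 29.56% in animal 1 by the first quantification, but 68.6% in animal 2 and 52.9% in animal 1 by the second. For Rbfox2, Rbfox2-203 took 33.06% in animal 2 and 29.98% in animal 1, Rbfox2-207 took 23.60% in animal 2 and 30.58% in animal 1, and the animals differed in which came first. The 417-base noncoding Rbfox2-205 had 22.55% in animal 2 and 19.71% in animal 1 and was at 0% in the second quantification.

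The annotation also marks transcripts that carry an early stop and are predicted targets of nonsense-mediated decay, the pathway that degrades such RNA, and transcripts that retain an intron or code for no protein. Coding transcripts made up 100% of the Rbfox1 level in both animals, and less than in the median gene for each of the other 8 detected members by the first quantification. By the second, Rbfox2, at 95.6% in animal 2 and 97.5% in animal 1, and Rbm24, at 100% in both, lay above that quantification's median of 89.3% in animal 2 and 88.6% in animal 1. The median of the first quantification over 9180 detected coding genes with several transcripts was 91.3% in animal 2 and 90.8% in animal 1. The coding share was 61.6% in animal 2 and 61.9% in animal 1 for Mbnl2, where the processed transcript Mbnl2-205 took most of the rest, and 84.2% in animal 2 and 83.5% in animal 1 for the same gene in the second quantification. Ptbp1 had a coding share of 64.3% in animal 2 and 44.9% in animal 1, with retained-intron transcripts at 20.9% in animal 2 and 36.6% in animal 1.

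Among the members, predicted decay transcripts are annotated only for Rbm20, Celf2 and Ptbp1, so their absence from the others was set by the annotation. Of these genes Rbm20, with only 3 annotated transcripts, had the highest decay share in both animals and both quantifications, all of it Rbm20-201. That share was 29.9% in animal 2 and 36.1% in animal 1 by the first quantification and 35.8% in animal 2 and 41.3% in animal 1 by the second. The decay share over all genes was not computed. Ptbp1 followed in the second quantification, with 13.7% in animal 2 and 16.2% in animal 1, where the first gave 7.63% in animal 2 and 15.1% in animal 1. By the first quantification Celf2 had 25.7% in animal 2 and 20.3% in animal 1, all of it Celf2-228, yet only 2.67% in animal 2 and 0% in animal 1 in the second.

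**Figure D3:**
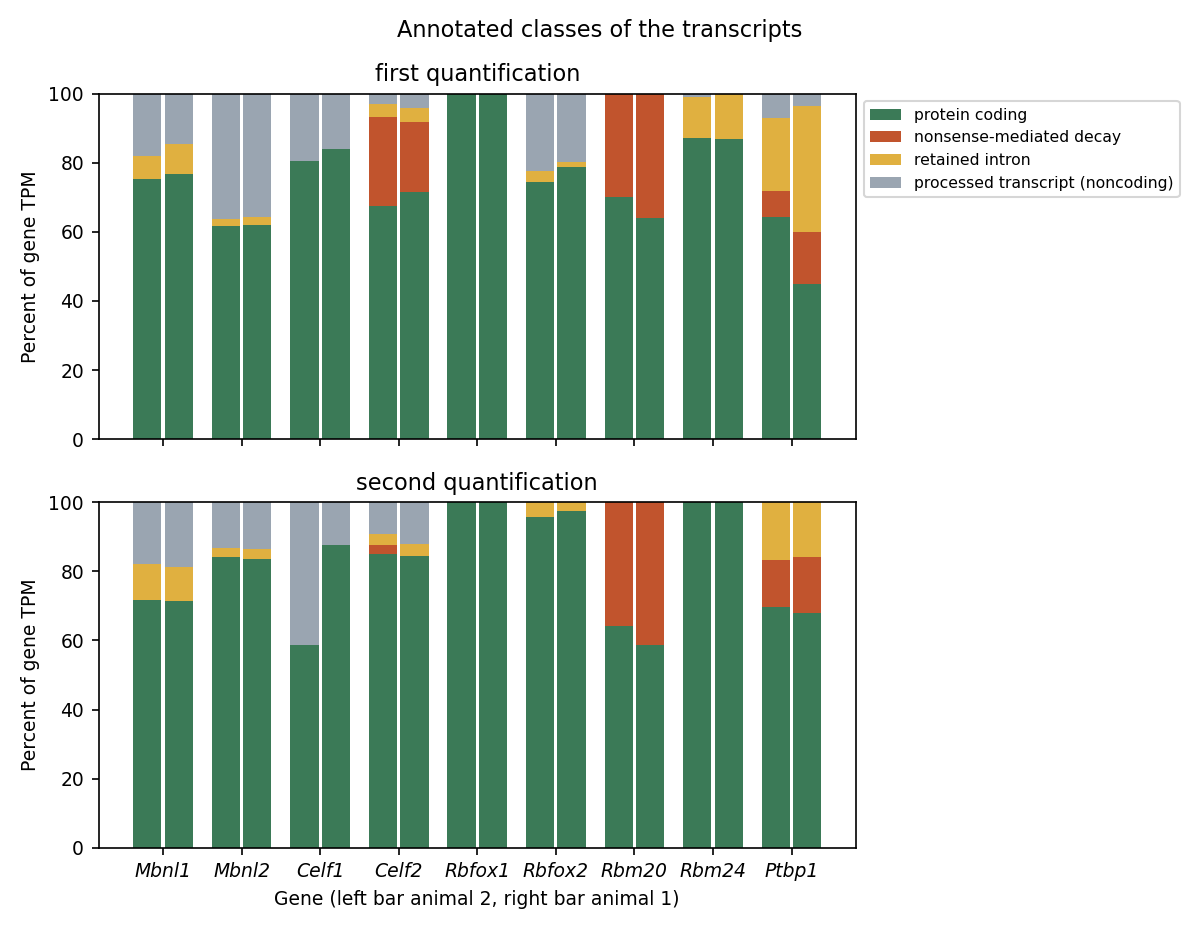
Share of each gene's TPM in 4 annotated transcript classes for the 9 detected regulators, in percent, with the left bar for animal 2 and the right bar for animal 1, in the first quantification above and the second below. Rbfox1 is coding throughout, while Rbm20 has 29.9 to 41.3% in transcripts predicted for nonsense-mediated decay in all 4 estimates.

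Inclusion of an internal exon was estimated as the TPM of transcripts that hold it, as a percent of the TPM of those that hold it or splice across it. It rests on the authors' transcript estimates and not on counted junction reads, and transcripts also differ elsewhere. Of 33 cassette exons that are coding over their whole length, 16 in 7 genes are described, namely those between 10 and 90% in either quantification whose informative transcripts made up at least 40% of the gene. The 36-base exon of Mbnl2 misses that range and is given only beside its Mbnl1 counterpart. The animals differed by at most 9.25 percentage points at any of these in the first quantification and 12.7 in the second.

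Mbnl1 and Mbnl2 share 3 alternative coding exons of equal length, of 54, 36 and 95 bases. The 54-base exon is known to favour nuclear localisation of the protein and to be skipped as muscle matures, under control of MBNL protein itself. The exons of 54 and 36 bases are shown here because they are the same length in both genes and because their use is compared below. Capitals mark the bases at which the paralogs differ, 8 of 54 and 5 of 36, and the sequences are from the GENCODE M21 transcripts of mm10, 5′ to 3′ on the plus strand.
Mbnl1 54-base exon (chr3:60614683-60614736): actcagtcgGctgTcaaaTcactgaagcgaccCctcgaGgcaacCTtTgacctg
Mbnl2 54-base exon (chr14:120395712-120395765): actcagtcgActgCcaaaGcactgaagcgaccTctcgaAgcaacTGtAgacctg
Mbnl1 36-base exon (chr3:60621423-60621458): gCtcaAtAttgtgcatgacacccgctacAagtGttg
Mbnl2 36-base exon (chr14:120403336-120403371): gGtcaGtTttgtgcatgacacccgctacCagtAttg

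The 54-base exon of Mbnl1 was included at 39.9% in animal 2 and 39.4% in animal 1 by the first quantification, and at 37.3% in animal 2 and 33.4% in animal 1 by the second. The 54-base exon of Mbnl2 was at 4.199% in animal 2 and 5.66% in animal 1 by the first quantification but at 42.2% in animal 2 and 42.6% in animal 1 by the second. The paralogs therefore differed several-fold by one quantification and hardly by the other, while the animals stayed close in each. Mbnl2-201, which holds the exon, was at 1.90% of the gene in animal 2 and 3.45% in animal 1 by the first quantification and 35.3% in animal 2 and 35.6% in animal 1 by the second.

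The 36-base exon of Mbnl1, known from the human gene to promote pairing of MBNL1 protein, was included at 57.4% in animal 2 and 64.6% in animal 1 by the first quantification, and at 61.4% in animal 2 and 62.8% in animal 1 by the second. In Mbnl2 the exon of the same length was at 0.705% in animal 2 and 0.442% in animal 1 by the first quantification, and at 7.6% in animal 2 and 8.19% in animal 1 by the second. This gap between the paralogs was therefore present in all 4 estimates. The 95-base exon of Mbnl1 was at 84.4% in animal 2 and 84.7% in animal 1, and that of Mbnl2 at 63.2% in animal 2 and 63.7% in animal 1, against 85.4% in animal 2 and 84.8% in animal 1 for Mbnl2 in the second quantification. Skipping of the Mbnl2 exon rests on the noncoding Mbnl2-205 alone. That transcript was at 35.9% of the gene in animal 2 and 35.1% in animal 1 by the first quantification. By the second it was at 13.1% in animal 2 and 13.5% in animal 1. A 111-base exon of Mbnl1 was lower, at 4.83% in animal 2 and 2.93% in animal 1 by the first quantification, but at 17.0% in animal 2 and 13.7% in animal 1 by the second. Its inclusion rests on the 576-base Mbnl1-210 alone.

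Rbfox1 and Rbfox2 each have a pair of exons of 40 and 43 bases, of which a transcript usually holds one. The 40-base exon is known as the brain form and the 43-base exon as the muscle form, and they encode alternative stretches behind the RNA-binding domain. They are shown because their balance in muscle is the result described next. Capitals mark the bases at which Rbfox1 and Rbfox2 differ, 6 of 40 and 16 of 43, so the 40-base exons are 85% identical and the 43-base exons 62.8%.
Rbfox1 40-base exon (chr16:7363865-7363904, plus strand): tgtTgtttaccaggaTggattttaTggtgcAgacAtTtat
Rbfox2 40-base exon (chr15:77094451-77094490, minus strand): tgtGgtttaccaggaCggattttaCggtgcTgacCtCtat
Rbfox1 43-base exon (chr16:7369801-7369843, plus strand): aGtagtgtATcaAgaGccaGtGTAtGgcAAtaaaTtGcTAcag
Rbfox2 43-base exon (chr15:77091812-77091854, minus strand): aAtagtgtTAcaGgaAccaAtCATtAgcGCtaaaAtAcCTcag

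In Rbfox1 the 40-base exon was included at 46.6% in animal 2 and 49.7% in animal 1, and the 43-base exon at 53.4% in animal 2 and 50.3% in animal 1. The second quantification gave 54.6% in animal 2 and 51.9% in animal 1 for the 40-base exon and 45.4% in animal 2 and 48.1% in animal 1 for the 43-base exon. The exons were thus near parity in all 4 estimates, and which was ahead depended on the quantification. In Rbfox2 the 40-base exon was ahead in all 4 estimates, at 64.2% in animal 2 and 59.7% in animal 1 by the first quantification and 56.9% in animal 2 and 53.8% in animal 1 by the second. The 43-base exon of Rbfox2 was at 32.9% in animal 2 and 39.5% in animal 1 by the first quantification, and 35.98% in animal 2 and 41.5% in animal 1 by the second.

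The main transcripts behind the Rbfox1 estimate, Rbfox1-203 with the 43-base exon and Rbfox1-201 with the 40-base exon, differ well beyond that pair, with 283 and 1937 exonic bases of their own. The estimate therefore also depends on reads from their other bases. In Rbfox2 the 1041-base transcript with the 43-base exon, Rbfox2-207, has 43 bases that Rbfox2-203 lacks, and Rbfox2-203 has 5575 bases that Rbfox2-207 lacks. The neuronal markers, Rbfox3 among them, stood at or near 0 in both animals, as given above. A 93-base exon of Rbfox2, which encodes part of the RNA-binding domain, was included at 67.1% in animal 2 and 60.7% in animal 1, and at 64.0% in animal 2 and 58.5% in animal 1 by the second quantification. Its skipping rests on Rbfox2-207 alone, which is also the only transcript above 0% that holds the 43-base exon. The inclusions of these exons are therefore not separate results.

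Rbm20 and Ptbp1 carry exons whose use separates coding from predicted decay transcripts. The 46-base exon of Rbm20 is held by the decay transcript Rbm20-201 and skipped by the coding Rbm20-203, and its inclusion was 47.0% in animal 2 and 48.4% in animal 1, with 44.4% in animal 2 and 45.6% in animal 1 by the second quantification. Those 2 transcripts also have 1988 (Rbm20-203) and 1759 (Rbm20-201) exonic bases of their own. The 34-base exon of Ptbp1 is the known site of its feedback control, where PTBP1 protein causes skipping and so decay. It was included at 81.0% in animal 2 and 72.4% in animal 1, with 83.8% in animal 2 and 77.98% in animal 1 by the second quantification. Neither length is a multiple of 3, so including or skipping the exon shifts the reading frame, and the sequences, from the same source as above and on the plus strand, are given for that reason.
Rbm20 46-base exon (chr19:53852354-53852399): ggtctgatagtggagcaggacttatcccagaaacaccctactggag
Ptbp1 34-base exon (chr10:79862014-79862047): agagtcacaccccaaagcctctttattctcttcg

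A 78-base exon of Ptbp1, which lengthens the linker between RNA-binding domains, was included at 53.6% in animal 2 and 62.8% in animal 1 and at 82.6% in animal 2 and 76.5% in animal 1 by the second quantification, so the animals changed order. In Celf2, a 144-base exon was included at 91.6% in animal 2 and 87.1% in animal 1, and at 90.3% in animal 2 and 77.5% in animal 1 by the second quantification. A 41-base exon found only in Celf2-228 was at 27.5% in animal 2 and 24.1% in animal 1, but at 3.89% in animal 2 and 0% in animal 1 in the second quantification.

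**Figure D4:**
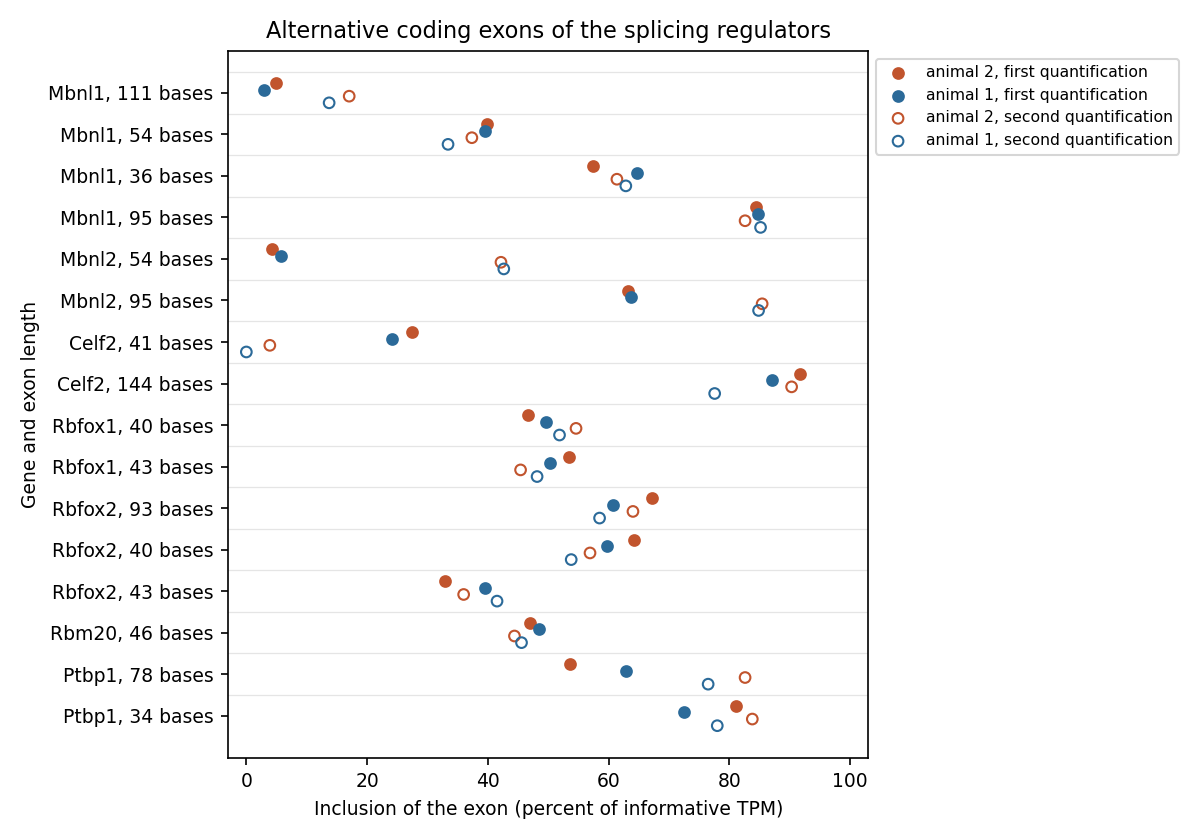
Inclusion in percent of 16 alternative coding exons of 7 splicing regulators, in gene order, with animal 2 in orange and animal 1 in blue, filled for the first and open for the second quantification. The Rbfox1 exons lie near 50%, and the Mbnl2 exons of 54 and 95 bases and the Celf2 exon of 41 bases are where the means of the 2 animals stand furthest apart between quantifications.

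Exons that these proteins are known to regulate were read in the same way. Among MBNL targets, the 42-base exon near the end of Atp2a1, the calcium pump of fast fibres, marks the adult form. It was included at 99.7% in animal 2 and 88.8% in animal 1. By the second quantification it was at 99.9% in animal 2 and 99.8% in animal 1. Its skipping rests on the short transcript Atp2a1-202 alone. With short transcripts left out, as for the gene levels above, inclusion was 100% in both animals and both quantifications. The 57-base exon of Cacna1s, the calcium channel of the T-tubule, was at 99.7% in animal 2 and 99.3% in animal 1, and the 15-base exon of the calcium release channel Ryr1 was at 99.4% in each animal. Of the 2 exons of 79 bases in the chloride channel gene Clcn1, the upstream one, which lies where exon 7a is known, was at 4.69% in animal 2 and 2.76% in animal 1, and at 8.76% in animal 2 and 8.20% in animal 1 by the second quantification. The 36-base exon of the insulin receptor gene Insr was low, at 13.4% in animal 2 and 17.7% in animal 1, and the exon of the transcription factor gene Nfix that MBNL1 regulates was intermediate, at 52.8% in animal 2 and 55.1% in animal 1. By the second quantification the Insr exon was at 15.2% in animal 2 and 20.7% in animal 1. The Nfix exon was at 70.2% in animal 2 and 72.5% in animal 1 there. Inclusion of the Insr exon rests on the short transcript Insr-203 alone. With short transcripts left out, as for the gene levels above, it was 0% in both animals and both quantifications.

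Among RBFOX targets, the 24-base exon of Mef2a was included at 76.9% in animal 2 and 72.7% in animal 1, and the 21-base exon of Mef2d at 15.2% in animal 2 and 14.7% in animal 1. Both genes encode muscle transcription factors, and both exons are known as enriched in striated muscle and brain. Among PTBP1 targets, the 34-base exon of Ptbp2, whose skipping leads to decay of that RNA, was at 88.4% in animal 2 and 95.3% in animal 1, and at 81.8% in animal 2 and 98.9% in animal 1 by the second quantification. With short transcripts left out it was at 100% in animal 2 and 95.3% in animal 1, so the animals changed order. By the second quantification it was then at 100% in animal 2 and 98.8% in animal 1. Informative transcripts made up only 39.9% of the gene in animal 1 there. In the pyruvate kinase gene Pkm the upstream of the mutually exclusive exons, which gives the adult muscle enzyme, was at 54.6% in animal 2 and 56.9% in animal 1, against 49.4% in animal 2 and 50.004% in animal 1 in the second quantification. This estimate rests on Pkm-202 against Pkm-201 alone, and whether reads tell these transcripts apart was not tested.

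**Figure D5:**
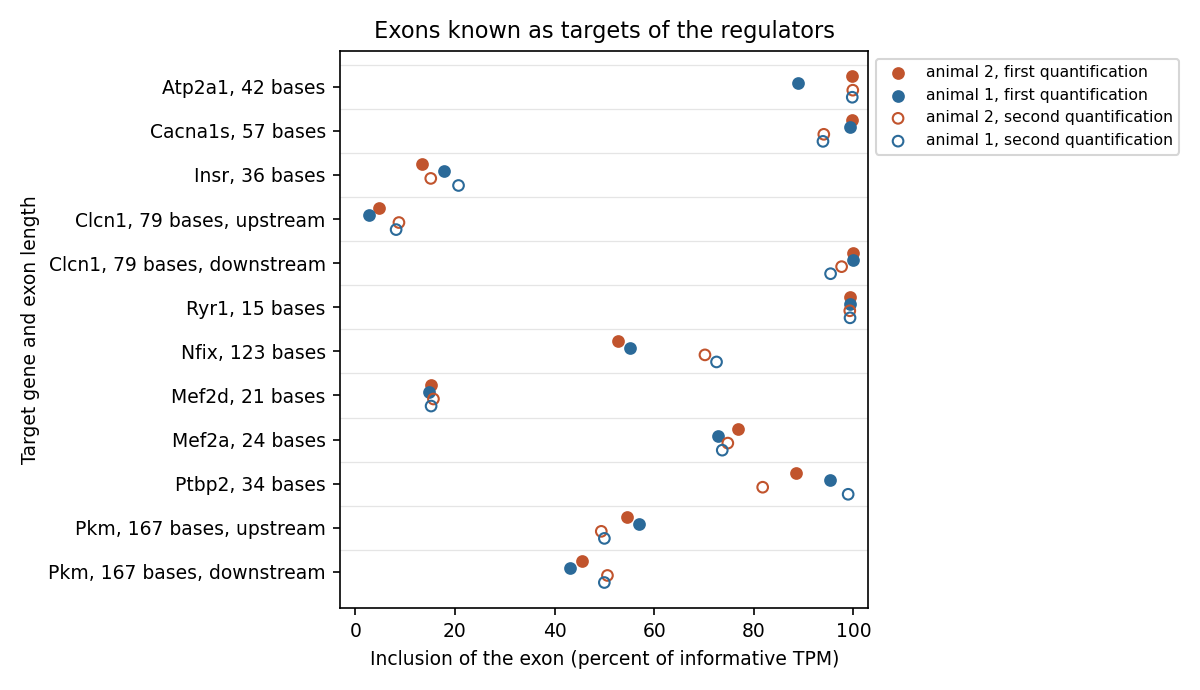
Inclusion in percent of 12 exons in 10 genes known as targets of MBNL, RBFOX or PTBP1 proteins, with animal 2 in orange and animal 1 in blue, filled for the first and open for the second quantification. The downstream Clcn1 exon is plotted only because its length equals that of the upstream one, which lies where the target exon is known. The Cacna1s and Ryr1 exons lie above 90% in all 4 estimates and the Mef2d exon near 15%.

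At the level of whole genes, 10 of 10 MBNL targets were detected, with 2 higher and 4 lower in animal 2 past counting error, against 14.8% of all genes tested and 26.8% of the nuclear protein-coding genes with a summed count of at least 850, which 10 of these 10 have. They had a median log2 ratio of -0.01 beside 0.01 over all genes tested. Of the 5 RBFOX targets 4 were detected, with 1 higher and 1 lower, and of the 6 RBM20 targets 5 were detected, with 2 higher and 2 lower. Titin, Ttn, the best known RBM20 target, had 2739 TPM in animal 2 and 2479 TPM in animal 1, and the cardiac release channel gene Ryr2 was not detected, at 0.12 TPM in animal 2 and 0.09 TPM in animal 1. Of the 5 PTBP1 targets 0 were higher and 3 were lower. No result about the lists is read from these counts. None of these list members passed the 2-fold condition.

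Of 20 other RNA-binding proteins that take part in alternative splicing, 16 were detected and 18 tested, with 1 higher and 3 lower in animal 2 past counting error. The background was 14.8% of all genes tested and 26.8% of the nuclear protein-coding genes with a summed count of at least 850. No result about this list is read from the counts. Fxr1 was the most abundant, at 164 TPM in animal 2 and 161 TPM in animal 1, in the range of Mbnl1. Quaking, Qk, which shares exon targets with PTBP1 in myoblasts, had 103.3 TPM in animal 2 and 84.9 TPM in animal 1. Hnrnpa1, a general repressor of exons, was lower, with 1597 counts in animal 2 and 1932 in animal 1 and a log2 ratio of -0.46 (adjusted p = 2.46e-19, exact binomial test), and it has many processed pseudogenes that could share its reads. The epithelial regulators Esrp1 and Esrp2 were listed at 0 in both animals. Genes whose pattern is most like that of a member were not sought, because with 2 libraries the correlation of any pair is 1 or -1.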

How the data were processed

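The authors deposited, for each library, a gene table, a transcript table and a second transcript table. Expected counts and TPM of the first pair stand in the columns RSEM writes, per the file headers, and each transcript's percent of its gene is deposited there too. The second table holds the authors' estimated counts and TPM under column names that kallisto uses, per the file headers. Texts deposited beside the tables state mm10 and GENCODE M21, a transcriptome alignment as the source of the first pair and reads as that of the second. For aligner, versions and strand setting, the entry is: not given in the sources used here. Transcript lengths and identifiers served as keys, and other deposited columns were not used.

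Library totals were 37428588 expected counts for animal 2 and 35098487 for animal 1. A 0 is compatible with up to 3 counts, which is 0.0802 CPM in animal 2 and 0.0855 CPM in animal 1. Only counting error enters the intervals and floors, and the reads carry no molecular identifiers. Spike-ins took 0.573% of counts in animal 2 and 0.543% in animal 1. Spike-ins, phiX and 26248 entries named only by a number (1 count per library) were left out.

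Counts were rounded and scaled by TMM (edgeR 4.0.16, R 4.3.3). Where both libraries together gave at least 20 counts, a gene was tested by a two-sided exact conditional binomial test (scipy 1.17.1) with a prior count of 0.5 in the ratio. edgeR's own test was not used, because 1 group of 2 leaves no comparison, and an exact test over 2 animals reaches p = 0.5 at best. On simulated counts for 14754 genes, 80 of 100 genes changed 1.5-fold passed, 100 of 100 changed 3-fold were called, and 2 of 14554 unchanged genes passed.

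All 10 members were named, with transcripts of 10% or more on average and the first in each quantification, the top 4 genes of each list, any called gene and all paralogs. Not all of these are repeated in the text. The members and lists were chosen with earlier results of these data known. The described exons, the target exons, the restriction to transcripts of 1000 bases or more and the ratio of TPM were chosen after values were seen. Genes sharing reads with pseudogenes or overlapping genes are uncertain. Alternatives were library totals, spike-ins, DESeq2 1.42.0 size factors, no count filter, other detection thresholds, posterior means, the second quantification and leaving out each animal.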

Additional observations from a re-analysis of the deposited data

How the results depend on the processing

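The calls between the libraries depended on the scaling. With library totals in place of TMM, 3469 genes passed counting error in place of 2188, of which 2874 were higher and 595 lower in animal 2, against 1175 higher and 1013 lower with TMM. The median log2 ratio moved by 0.09. Among the regulators 5 passed in place of 2, and the log2 ratio turned positive for Mbnl1 (0.0769), Mbnl2 (0.0619), Celf2 (0.0880), Rbfox1 (0.0778) and Ptbp1 (0.0774). Rbfox2 and Rbm20 then passed, at 0.18 each, and Rbm24 did not, at -0.05. By the ratio of TPM the sign also turned for Mbnl1 (0.22), Mbnl2 (0.0844), Celf2 (0.0499), Rbfox1 (0.12) and Ptbp1 (0.49), and by spike-ins for Celf2 (0.00955). The cause was not tested. Celf1 passed under every count-based alternative run. The number of regulators with the same leading transcript was 4 when asked of both animals and both quantifications, 8 within the second alone and 8 by posterior mean share. That 9 regulators were detected, and that 0 differed by over 2-fold, held under every alternative run for them, including without either animal for detection. Of 16 exon inclusions, 12 moved by more than the spread between the animals in the second quantification. No paired analysis was possible because the series has 1 group.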
